A study of Homo sapiens with 6 samples.

Results

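Heat shock proteins and chaperones are the proteins that help other proteins fold, hold unfolded chains in solution and pass damaged ones on for disposal. Their transcripts were compared between 2 populations of human cells of the H9 embryonic stem cell line, each measured on 3 one-colour oligonucleotide arrays. The first population was undifferentiated H9 cells (hESC). The second was a mesodermal progenitor population that had been grown from H9 cells in Stemline II medium, to which FGF2, VEGF, activin A and BMP4 had been added, and sorted by flow cytometry on day 3.5 as cells that carried CD56 and lacked CD326. Both groups come from 1 cell line, and the label texts on induction and sort, which concern mesoderm and the progenitors, are repeated on the hESC arrays, whose own culture is not described. As the groups stand, differentiation, the culture medium and the sort cannot be told apart in this comparison. Whether the 3 arrays of each group stand for 3 cultures is not in the labels. The p-values therefore measure how far these samples lie from each other, a spread that may be technical.

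Members were chosen by gene symbol, by a rule that uses no measured value but was set with earlier results of these data known. A probe set, the group of probes that reads 1 transcript, was a member if it was annotated to a single symbol that starts with HSPA, HSPB, HSP90, HSPD, HSPE, HSPH, DNAJA, DNAJB or DNAJC, or to a chaperonin subunit of the CCT group, HSF1, BAG1, BAG2, BAG3, STIP1, CALR or CANX. This gave 205 of the 54675 probe sets, which belong to 89 of the 19775 genes tested. Of the 89 genes, 84 code for proteins and 5 are noncoding RNAs named after a neighbouring chaperone gene. HSPBP1 and HSPBAP1 match the rule by their letters but are not small heat shock proteins, and they are kept apart. A further 17 probe sets annotated to several genes at once were left out, and HSF2, TCP1, HSPA8, HSPA1A and HSPA1B are not analysed here. No filter on low values was applied. 68 of the 89 genes lay above the array's median on all 6 arrays and 12 lay below it on all 6.

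The families work as a relay. HSP70 proteins bind short greasy stretches of unfolded chains, J-domain proteins (the DNAJ genes) bring the substrate and switch on the ATPase of HSP70, and exchange factors such as the BAG proteins and HSP110 release it. STIP1 hands substrates from HSP70 to HSP90, which finishes kinases and hormone receptors. Chaperonins are closed barrels in which single proteins fold, CCT in the cytosol for actin and tubulin and HSPD1 with its lid HSPE1 in mitochondria. Small heat shock proteins hold aggregating chains without ATP, and BAG3 links them to HSP70 and to autophagy. HSF1 is the transcription factor that switches many of these genes on after heat, and calreticulin and calnexin are lectins that fold glycoproteins in the endoplasmic reticulum (ER).

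The 2 populations were told apart by their own markers. All 8 measured of 9 listed hESC markers were lower in the progenitors, with a summed intensity of 5765 to 6209 against 26820.2 to 30985, and all 9 mesoderm markers were higher, with 24059.7 to 24808 against 217 to 299. Endothelial markers had a summed intensity of 5898 on progenitor array 1, of 1906 and 2042 on progenitor arrays 2 and 3 and of 626 to 679.7 on the hESC arrays, with 5 of 8 called higher and 3 not past the test. Of 6 endoderm markers 3 were higher and 1 lower, summing to 445 to 599.6 on progenitor arrays and 335 to 383 on hESC arrays, and of 5 neuroectoderm markers 1 was higher and 1 lower. The array medians were 31.0 to 31.2 in the progenitor group and 33.1 to 36.1 in the hESC group. The hybridization controls, bacterial transcripts added to each array at a set amount, had a geometric mean of 735 to 854 on progenitor arrays and 1019.7 to 1230.1 on hESC arrays. The ACTB 3'/5' signal ratio, a sign of RNA integrity, was 1.34 to 1.44 against 1.46 to 2.13. The same ratio for GAPDH was 0.888 to 1.003 against 0.878 to 0.903, with overlap (exact permutation test, two-sided, p = 0.3). Both the controls and the ACTB ratio differed without overlap (exact permutation test, two-sided, p = 0.1, the smallest that 3 against 3 arrays allow), and their part in the differences below was not tested.

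With the arrays quantile-normalized, chaperone genes were called about as often as all genes, but less often among genes above the array median. Few of them changed strongly. Between progenitors and hESC, 24 of the 89 genes were higher, 15 were lower and 50 did not pass the test (limma, Benjamini-Hochberg adjusted p under 0.05 over all 19775 genes). The 39 called genes are 43.8% of the members, where 47.9% of all genes were called. By direction, 27.0% of members were higher against 26.7% of all genes, and 16.9% were lower against 21.2%. Each of these shares is near its background over all genes. Members were brighter than that background, with a median intensity of 610 against 104 in progenitors and 474 against 92 in hESC. Among genes above the array median on all 6 arrays, 48.5% of the 68 members were called, against 61.2% of all such genes. There, 29.4% of members were higher against 33.2%, and 19.1% were lower against 28%. In bulk RNA of this kind, a change in the share of cells of a type and a change in RNA per cell cannot be told apart.

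Changes are given as log2 differences, progenitor mean less hESC mean, of log2(intensity + 16) after quantile normalization. On this scale the change of a gene with low signal is understated. The values given array by array are the deposited intensities, before normalization, so a small log2 change can differ from them in sign. Only 7 members, 7.87%, were called with at least a 2-fold change, where 16.6% of all genes were. These were 5 higher (background 9.39%), namely DNAJC6, BAG3, DNAJC15, HSPB1 and DNAJB5, and 2 lower (background 7.22%), DNAJB6 and DNAJC2. The median absolute log2 change was 0.213 over members and 0.317 over all genes, and 55 members, 61.8%, changed by less than 0.3 in either direction, where 48.2% of all genes did. The median signed change was 0.018 over members and 0.040 over all genes. The 3 progenitor values lay wholly on one side of the 3 hESC values for 56 members, 62.9%, where this held for 57.3% of all genes. Among genes above the array median on all 6 arrays it held for 70.6% of members and 72.4% of all genes.

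Both counts moved with how the arrays were brought to 1 scale. Centring each array on its median shifted the median change of all genes to -0.15. It gave 17 of 89 members higher and 29 lower, beside 3822 and 6447 of all 19775 genes. Scaling on the hybridization controls shifted the median change of all genes to 0.32. It gave 58 of 89 members higher and 3 lower, beside 9102 and 2002 of all 19775 genes. These counts over all genes are also the background of the counts by scaling given below. Of the called members, 61.5% were thus higher with quantile normalization, 37.0% with centring and 95.1% with the controls, beside 55.8%, 37.2% and 82.0% of all called genes. The 15 lower genes became 7 without progenitor array 2, 7 without progenitor array 3 and 8 without hESC array 1. The direction of a small change in the text below is therefore relative to all genes on these arrays.

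**Figure D1:**
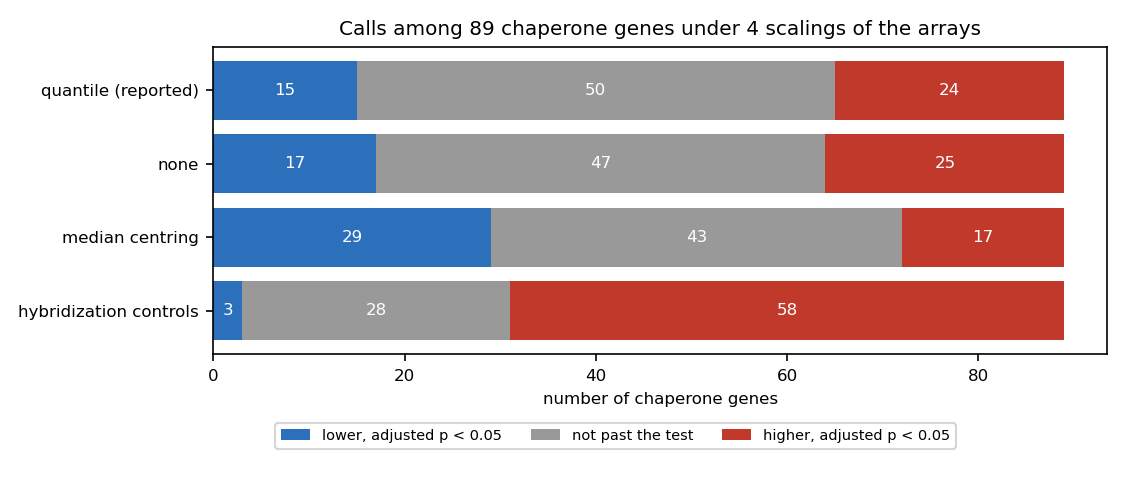
Number of the 89 chaperone genes called higher, called lower or not past the test (limma, adjusted p under 0.05) in progenitors against hESC under 4 ways of scaling the arrays. Quantile normalization gave 24 higher and 15 lower, centring on medians 17 and 29, and hybridization controls 58 and 3.

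The 39 calls differed in how far they depended on these choices. The 20 alternatives changed the scaling, pseudocount, filter, choice of probe set, variance model, block, threshold and arrays used. DNAJC15, DNAJB5, DNAJB9, DNAJC14, DNAJC1 and DNAJC17 were called higher in all 20. A further 9 genes kept direction and call in the 19 alternatives that gave them a value. These were BAG3, HSPB1, DNAJC6, DNAJB1 and DNAJB6, which have only probe sets marked as matching several transcripts, and DNAJC28, HSPA12B, HSPA1L and HSPB6, which lie among the dimmest 50% of genes. All of the 15 were higher but DNAJB6, which was lower. The remaining 24 calls were lost, or changed direction, in 1 or more alternatives.

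Leaving out 1 array ended the call of 15 genes in 1 or more of the 6 fits. Of the 39 calls, 12 were lost without progenitor array 2, 12 without progenitor array 3, 11 without hESC array 1, 6 without hESC array 2, 3 without hESC array 3 and 1 without progenitor array 1. BAG1 lost its call in 5 of the 6 fits, and CANX, HSF1, HSPB9, DNAJB8 and DNAJC21 lost theirs in 4. DNAJC27, DNAJC3-DT and HSPD1 lost theirs in 3, DNAJA1, DNAJB14, HSPA2, HSPA5 and HSPH1 in 2 and DNAJC8 in 1.

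**Figure D2:**
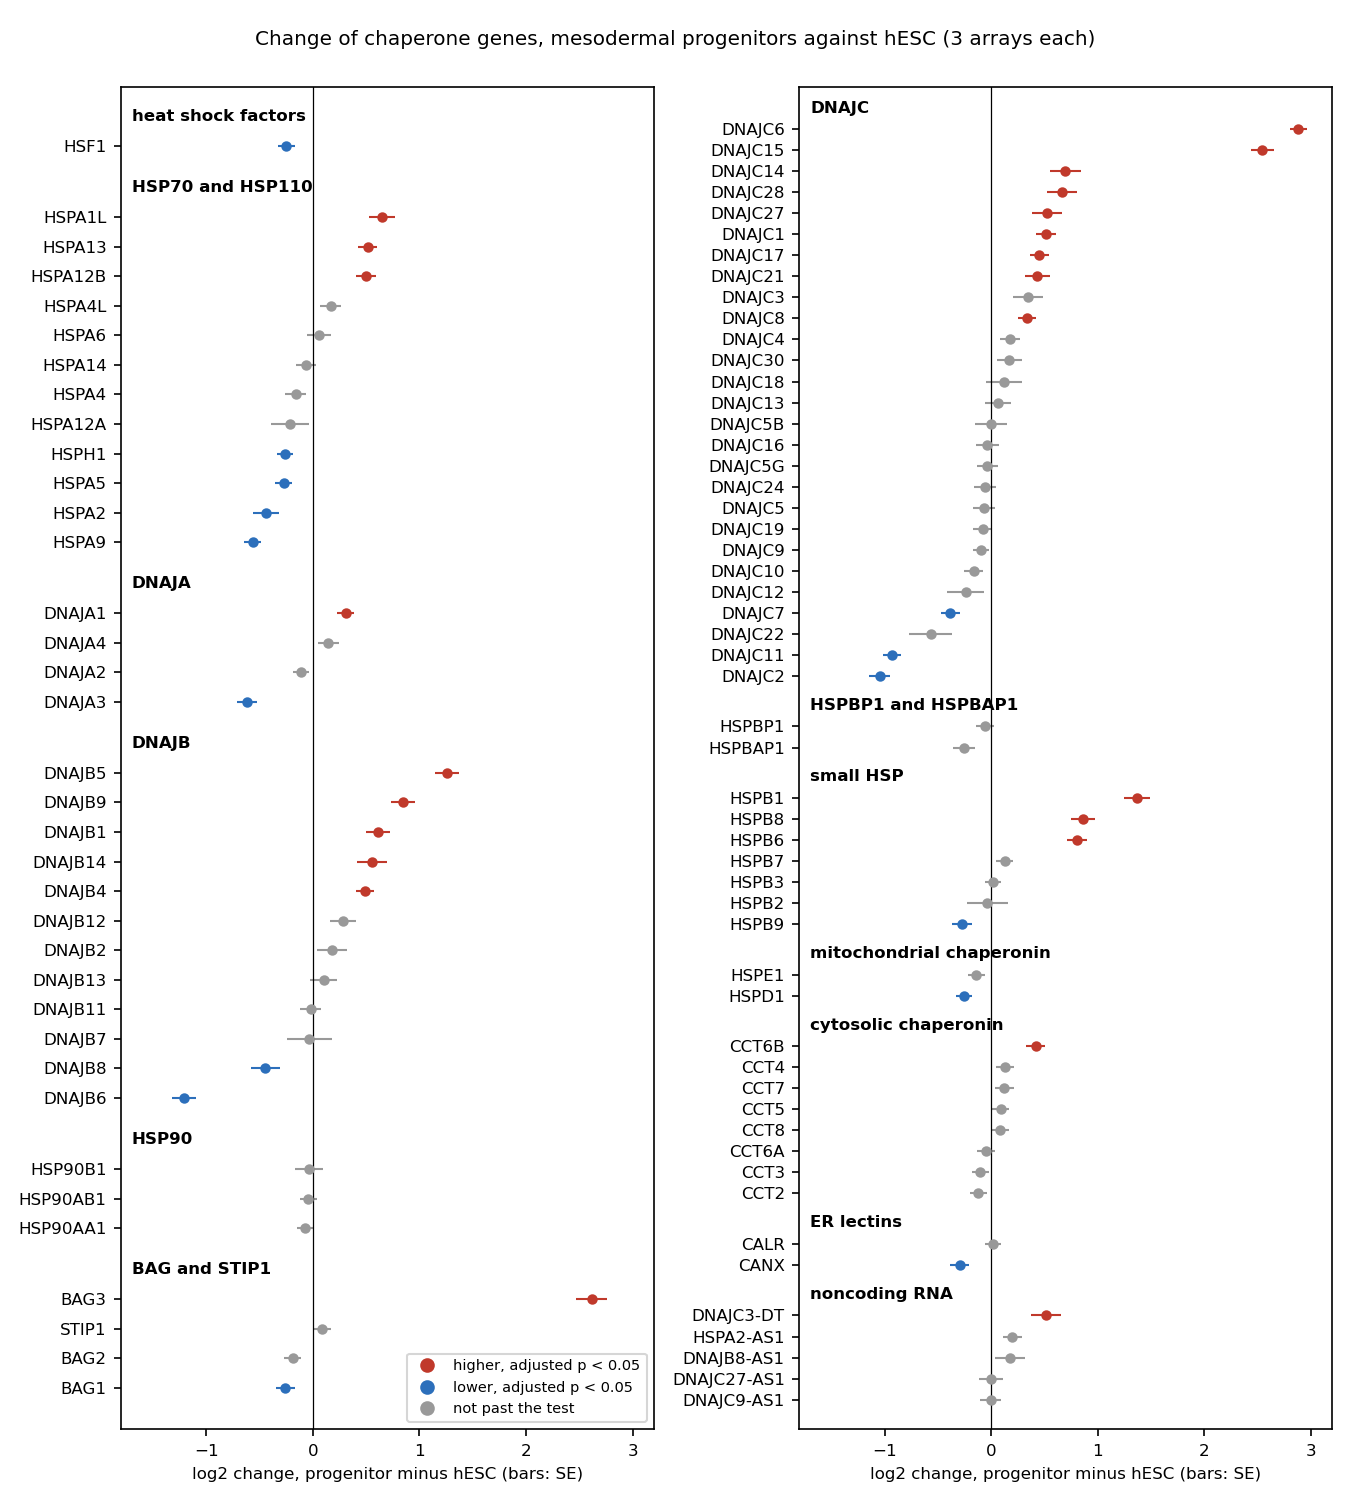
Log2 change of every member gene (progenitor minus hESC, horizontal axis) with its standard error, grouped by role and coloured by call. BAG3, DNAJC6 and DNAJC15 lie above 2.5, DNAJB6 and DNAJC2 lie below -1, and most of the HSP90 and CCT genes lie close to 0.

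Many chaperone genes carry heat shock elements, runs of GAA and TTC units to which trimers of HSF1 bind, in the stretch before their start site. Promoter windows, 250 bases before to 50 bases after a start site, were taken from RefSeq (GRCh38.p14), and 80 of the 89 members had 1 or more in the table, 108 in all. The 3-unit form, written GAA, any 2 bases, TTC, any 2 bases and GAA and searched on both strands, was in a window of 6 members, 7.5%, and of 166 of the 27305 genes in the table, 0.608%. It was in 1 of 22 members called higher (DNAJA1), 2 of 14 called lower (DNAJB6 and HSPD1) and 3 of 44 not past the test (HSP90AA1, HSP90AB1 and HSPA6). The 2-unit forms, GAA and then TTC or TTC and then GAA with any 2 bases between, lie inside the 3-unit form and so overlap it. They were in 21.2% and 20% of members against 8.21% and 9.46% of all genes. A match is a description of letters, not a measured site of binding.

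The 250 bases before 1 start site are shown for 5 of these 6 genes and for 2 of the genes that rose most without a 3-unit match, so that the elements can be set beside the changes. Where a gene had several start sites, the window with the most 3-unit matches was picked. The other windows of HSPD1, HSP90AA1 and HSP90AB1 held no heat shock element of 2 or 3 units. Capitals mark every heat shock element of 2 or 3 units, and each sequence is read 5' to 3' on the gene's strand. DNAJB6 is at chr7:157336754-157337003 on the plus strand, HSPD1 at chr2:197499841-197500090 on the minus strand, HSP90AA1 at chr14:102087045-102087294 on the minus strand and HSP90AB1 at chr6:44247693-44247942 on the plus strand. HSPA6 is at chr1:161524290-161524539, BAG3 at chr10:119651130-119651379 and HSPB1 at chr7:76302423-76302672, all on the plus strand.
DNAJB6: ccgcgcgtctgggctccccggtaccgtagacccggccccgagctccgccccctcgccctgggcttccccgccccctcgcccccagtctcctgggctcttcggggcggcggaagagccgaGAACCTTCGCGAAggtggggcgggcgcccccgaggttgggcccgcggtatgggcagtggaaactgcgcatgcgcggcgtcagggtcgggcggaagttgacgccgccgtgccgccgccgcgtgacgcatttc
HSPD1: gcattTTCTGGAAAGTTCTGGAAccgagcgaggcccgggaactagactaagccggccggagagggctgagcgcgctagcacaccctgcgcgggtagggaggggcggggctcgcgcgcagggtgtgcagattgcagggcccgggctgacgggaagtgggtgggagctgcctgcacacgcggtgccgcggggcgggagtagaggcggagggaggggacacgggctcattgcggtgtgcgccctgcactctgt
HSP90AA1: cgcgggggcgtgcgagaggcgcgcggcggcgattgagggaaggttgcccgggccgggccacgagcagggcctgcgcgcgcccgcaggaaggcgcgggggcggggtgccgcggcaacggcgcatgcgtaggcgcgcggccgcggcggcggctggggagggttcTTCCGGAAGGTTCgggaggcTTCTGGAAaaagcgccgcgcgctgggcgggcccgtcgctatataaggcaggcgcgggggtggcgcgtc
HSP90AB1: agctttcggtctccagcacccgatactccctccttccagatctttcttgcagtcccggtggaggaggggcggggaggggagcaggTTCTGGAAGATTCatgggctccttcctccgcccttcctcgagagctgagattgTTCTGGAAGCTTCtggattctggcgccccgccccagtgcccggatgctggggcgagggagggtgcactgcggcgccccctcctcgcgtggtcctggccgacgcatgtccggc
HSPA6: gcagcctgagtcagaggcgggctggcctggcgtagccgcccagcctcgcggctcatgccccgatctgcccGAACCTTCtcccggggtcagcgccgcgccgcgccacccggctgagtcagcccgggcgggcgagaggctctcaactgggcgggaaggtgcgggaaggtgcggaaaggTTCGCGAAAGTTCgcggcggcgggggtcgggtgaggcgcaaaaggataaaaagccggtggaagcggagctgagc
BAG3: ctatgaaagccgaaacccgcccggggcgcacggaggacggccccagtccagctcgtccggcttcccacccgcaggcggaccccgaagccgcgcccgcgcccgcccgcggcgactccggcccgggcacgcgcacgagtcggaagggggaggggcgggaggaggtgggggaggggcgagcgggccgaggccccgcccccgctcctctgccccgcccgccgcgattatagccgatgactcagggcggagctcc
HSPB1: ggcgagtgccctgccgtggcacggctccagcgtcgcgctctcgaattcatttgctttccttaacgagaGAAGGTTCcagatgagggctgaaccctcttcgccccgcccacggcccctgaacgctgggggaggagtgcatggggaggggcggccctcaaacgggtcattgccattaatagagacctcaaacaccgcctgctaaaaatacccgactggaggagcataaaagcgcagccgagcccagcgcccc
HSP90AB1 had 2 separate 3-unit matches, HSPD1 an unbroken run that held 2 overlapping ones, and DNAJB6, HSP90AA1 and HSPA6 1 each. In DNAJA1 the match, GAActTTCcaGAA, began 4 bases into the transcript. HSPB1 held only the short form and BAG3 none in this window. Among the genes with the 3-unit form, the log2 change ran from -1.21 for DNAJB6 to 0.31 for DNAJA1, so carriers of the element were found in all 3 outcomes.

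HSF1 itself was slightly lower in the progenitors. Its intensity was 658, 591 and 587 on progenitor arrays 1 to 3 and 753, 777 and 720.3 on the hESC arrays. The groups did not overlap, and the log2 change was -0.25 (SE 0.08, n = 3 per group, limma adjusted p = 0.0372). Neither of its 2 probe sets passed when all probe sets were tested singly, and the change became 0.12 with the mean of its probe sets and 0.23 with scaling on hybridization controls. HSPA6, an HSP70 that is scarcely transcribed without stress, stayed under every array's median, at 4.32 to 9.74 in progenitors and 5.02 to 7.01 in hESC.

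BAG3, the exchange factor that joins HSP70 to small heat shock proteins and to autophagy, rose 6.14-fold. It measured 2167, 1502 and 1575 on the progenitor arrays and 281, 247 and 285 on the hESC arrays. Every progenitor array was far above every hESC array, and progenitor array 1, which also held the most endothelial marker signal, was the highest. The log2 change was 2.62 (SE 0.15, limma adjusted p = 8.17e-06), and it was 2.46 without progenitor array 1. BAG1, an exchange factor that brings HSP70 to the proteasome, was lower (-0.26, limma adjusted p = 0.0412), while BAG2 (-0.19) and STIP1 (0.09), which measured 2347 to 2401 against 2277 to 2473, did not pass. With hybridization controls BAG1 read 0.20 and BAG2 0.33.

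Of the 7 small heat shock proteins, 3 rose, 1 fell and 3 did not pass, and the 3 rises were also called with median centring and with hybridization controls. HSPB8 lost its call without the probe sets marked as matching several transcripts. HSPB1 (HSP27), which binds actin filaments as well as unfolded chains, measured 2442, 2416 and 2556 in progenitors and 1107, 838 and 1070.5 in hESC. Every progenitor value lay far above the highest hESC value, and the log2 change was 1.37 (SE 0.12, limma adjusted p = 8.98e-05). HSPB8, the partner of BAG3 in selective autophagy, measured 321, 295 and 298 against 135, 183 and 152, a log2 change of 0.86 (SE 0.12, limma adjusted p = 0.000635). Its other probe set did not pass, and that one alone gave 0.097 (limma adjusted p = 0.426). HSPB6, known from muscle, rose from low signal, 48.5, 40.8 and 51.9 against 22.6, 24.8 and 20.2 (0.80, SE 0.10, limma adjusted p = 0.000348). In all 3 the groups did not overlap. HSPB9, a testis protein, fell by 0.27 (limma adjusted p = 0.0441) but lay under the array median throughout, at 8.76 to 12.8 against 16.5 to 18.2, and its probe set did not pass in the fit of single probe sets. HSPB2, HSPB3 and HSPB7 were also under the median on all arrays, with log2 changes of -0.04, 0.02 and 0.13.

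The HSP90 genes did not pass. HSP90AA1 and HSP90AB1, the inducible and the constitutive cytosolic forms, had log2 changes of -0.08 and -0.04, and HSP90B1, the form of the ER, had -0.04. HSP90AA1 measured 7220, 7269 and 7150 in progenitors and 7595, 7435 and 7322 in hESC. HSP90AB1 measured 6476, 6644 and 6479 against 6886, 6262 and 6769. HSP90B1 spread more widely, 2109, 1905 and 1651 against 1775, 2153 and 2225. The groups overlapped for HSP90AB1 and HSP90B1, and for HSP90AA1 they were apart by a margin small beside its level. None of the 3 genes had an unadjusted p under 0.05 in limma, and with hybridization controls all 3 were called higher (0.48, 0.50 and 0.41).

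**Figure D3:**
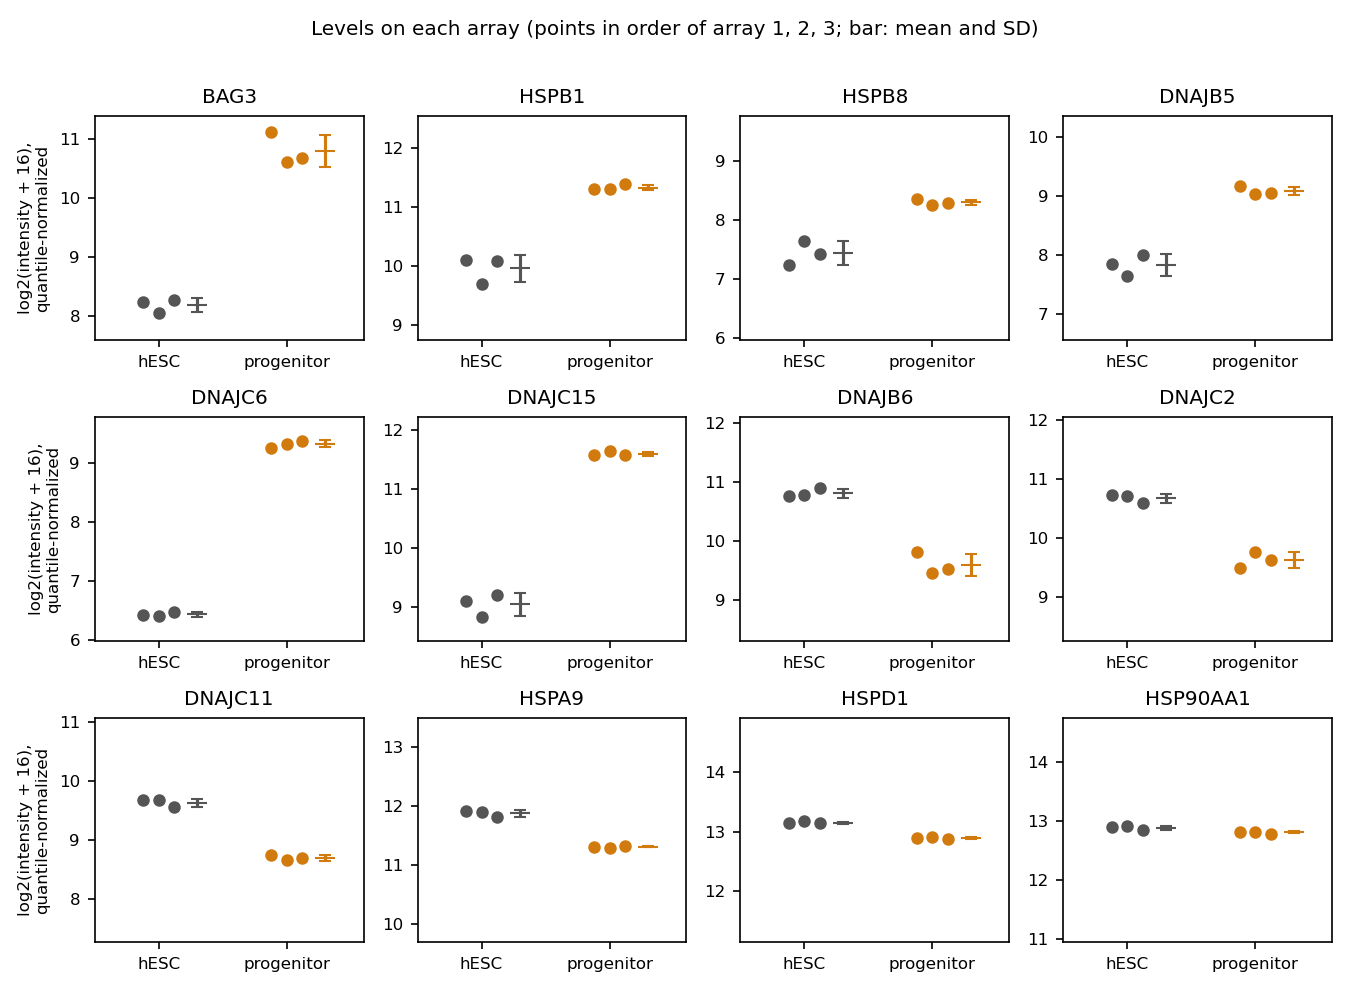
Level on each array, as log2(intensity + 16) after quantile normalization, for 12 members, with a point for each of 3 hESC (grey) and 3 progenitor (orange) arrays and a bar for the mean and SD. BAG3, HSPB1, DNAJC6 and DNAJC15 are higher and DNAJB6 is lower on all progenitor arrays, and HSP90AA1 reads -0.08.

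The HSP70 and HSP110 family split: with quantile normalization 3 of 12 rose, 4 fell and 5 missed the threshold, against 3 and 5 with median centring and 5 and 0 with hybridization controls. HSPA1L, a close relative of the inducible HSP70 genes best known from testis, measured 40.0, 45.1 and 56.1 against 25.5, 24.9 and 30.5 (0.65, SE 0.12, limma adjusted p = 0.00369). HSPA13, a microsomal form, measured 1099, 1067 and 1049 against 712.5, 851 and 773 (0.51, SE 0.09, limma adjusted p = 0.00229), and with the mean of its probe sets it read 0.21 (limma adjusted p = 0.108). HSPA12B, a distant form known from endothelial cells, measured 89.6, 85.4 and 92.5 against 70.2, 57.6 and 58.6 (0.50, SE 0.10, limma adjusted p = 0.00393). The groups were apart for all 3. Endothelial marker signal was highest on progenitor array 1, and its part in these values was not tested.

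The 4 genes of the family that fell were HSPA9, HSPA2, HSPA5 and HSPH1. HSPA9 (mortalin), which pulls proteins into mitochondria and folds them there, measured 2481, 2416 and 2438 against 3945, 3911 and 3577, and all 4 of its probe sets were lower. Its log2 change was -0.57 (SE 0.08, limma adjusted p = 0.000713), and it was -0.11 and not past the test (limma adjusted p = 0.485) with hybridization controls. HSPA2, known for its role in sperm formation, measured 477, 476 and 439.6 against 651, 555 and 729 (-0.44, limma adjusted p = 0.018). HSPA5 (BiP), the HSP70 of the ER, measured 5215, 4927 and 4960 against 5999, 6130 and 6341 (-0.28, limma adjusted p = 0.0219). HSPH1, the HSP110 exchange factor, measured 2256, 2181 and 2159 against 2692, 2884 and 2771 (-0.26, limma adjusted p = 0.0249). In each of the 4 the groups were apart, but with hybridization controls HSPA2, HSPA5 and HSPH1 read 0.06, 0.24 and 0.19. With the mean of its probe sets HSPH1 read -0.16 (limma adjusted p = 0.308). HSPA4 (-0.16) and HSPA14 (-0.07) were the brightest genes of the family among those that did not pass. HSPA4L (0.17), HSPA6 (0.05) and HSPA12A (-0.21) missed the threshold too. For HSPA4 this outcome depended on the processing. Of its 4 probe sets, 1 was lower and 3 did not pass. Averaging them, or dropping those marked as matching several transcripts, altered the outcome, as did median centring and a pseudocount of 64. Over the 20 alternatives its change ran from -0.92 to 0.28.

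HSPA5 is also a member whose probe sets disagreed. Its brighter probe set was lower by 0.28 and its other one was higher by 0.49, both past the test over probe sets, and their mean gave 0.11. HSPA5, CANX, CALR and HSP90B1 were the 4 members, 5.0%, whose windows held the ER stress element (CCAAT, any 9 bases and CCACG, on either strand), bound by ATF6 with NF-Y, which was in 0.0916% of the genes in the table. They are shown along the motif, with its fixed letters in capitals, because they mark textbook targets of the unfolded protein response. With hybridization controls HSPA5 and HSP90B1 read 0.24 and 0.41.
CALR: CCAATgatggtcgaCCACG
CANX: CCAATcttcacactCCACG
HSP90B1 first match: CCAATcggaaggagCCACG
HSP90B1 second match: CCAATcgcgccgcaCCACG
HSPA5: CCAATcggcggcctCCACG
CANX, calnexin, fell by 0.30 (limma adjusted p = 0.0317; 4844, 4179 and 4281 against 5412, 5381 and 5829) and read 0.20 with hybridization controls. CALR, calreticulin, measured 3659, 3549 and 3689 against 3718, 3714 and 3792 before normalization. After it the groups overlapped, and CALR did not pass (0.02). DNAJC10, a disulfide reductase of the ER, was the member whose window held the XBP1 element TGACGTGG (1.25% of members, 0.927% of all genes), and it did not pass either (-0.16).

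J-domain proteins of class A and B are the general partners of HSP70. With quantile normalization, 5 of the 12 DNAJB genes rose, 2 fell and 5 missed the threshold, against 4 and 2 with median centring and 9 and 1 with hybridization controls. DNAJB5 measured 568, 506 and 508 in progenitors and 213, 184 and 234 in hESC (1.26, SE 0.11, limma adjusted p = 8.02e-05). DNAJB9 (ERdj4), a J protein of the ER that represses the stress sensor IRE1, measured 1014, 895 and 833 against 524, 456 and 552 (0.85, SE 0.11, limma adjusted p = 0.000551). DNAJB1 (HSP40), the main heat-inducible J protein of the cytosol, measured 800, 765 and 749 against 532, 432 and 566 (0.61, SE 0.12, limma adjusted p = 0.0036). All probe sets of these 3 genes were higher, 7 of 7 in total. DNAJB14 (0.55) and DNAJB4 (0.49) also rose. DNAJB14 lost its call with median centring and without progenitor array 3 or hESC array 1. The other probe set of DNAJB4 read -0.29 and did not pass, and the mean of both gave 0.099 (limma adjusted p = 0.393).

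DNAJB6, which keeps polyglutamine and keratin from aggregating, had the largest fall of any member when genes were read by their brightest probe set. With the mean of probe sets DNAJC7 fell further (-1.62). DNAJB6 measured 881, 672 and 709 in progenitors and 1784, 1836 and 1863 in hESC. The highest progenitor array lay far below the lowest hESC array. The log2 change was -1.21 (SE 0.11, limma adjusted p = 0.000108), from -1.32 to -1.14 when 1 array was left out, and -0.75 with hybridization controls, and it was read by 1 probe set. DNAJB8, a testis relative of DNAJB6, fell by 0.45 (limma adjusted p = 0.0294) from low signal, 25.8 to 35.2 against 41.2 to 64.3, and its call was lost in 4 of the 6 fits without 1 array and with hybridization controls. DNAJB11 and DNAJB12, the brightest of the group that did not pass, had changes of -0.02 and 0.28. DNAJB2 (0.18), DNAJB13 (0.10) and DNAJB7 (-0.03), the last under the array median throughout, missed the threshold too.

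Of the 4 DNAJA genes, DNAJA1, the cytosolic J protein that serves HSP70 in protein import and refolding, rose by 0.31 (limma adjusted p = 0.0158; 4289, 4047 and 3945 against 3327, 3491 and 3486). Without the probe sets marked as matching several transcripts the change was -0.02. DNAJA3 (TID1), the mitochondrial J protein that works with HSPA9, fell by 0.62 (SE 0.09, limma adjusted p = 0.00123), and both of its probe sets were lower. It measured 626, 721 and 718 against 1118, 1073 and 1108, with the groups well apart, but was not past the test with hybridization controls (-0.15, limma adjusted p = 0.43). DNAJA2 (-0.11) and DNAJA4 (0.15) did not pass.

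Class C holds J proteins with special tasks, and it had the widest range of change among the members. With quantile normalization, 9 of its 27 genes rose, 3 fell and 15 missed the threshold, against 6 and 9 with median centring and 19 and 2 with hybridization controls. DNAJC6 (auxilin), which with HSP70 strips the clathrin coat off vesicles, measured 603, 618 and 641 in progenitors and 73.4, 73.7 and 72.6 in hESC. The hESC arrays were within 2 units of each other, and the 7.38-fold rise was the largest of any member read by its brightest probe set (log2 2.88, SE 0.08, limma adjusted p = 3.53e-07). It was called by 1 of its 2 probe sets, and the other read -0.05 and did not pass, with a mean of 1.41 over both. DNAJC15 (MCJ), a J protein of the mitochondrial inner membrane that acts on protein import and on respiratory complex I, measured 2963, 3091 and 2986 against 536, 439 and 567 (log2 2.55, SE 0.11, limma adjusted p = 2.54e-06). Its progenitor values lay close together and far above all hESC values, and 2 of its 3 probe sets were higher and none lower.

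The other 7 DNAJC rises were smaller, from 0.34 for DNAJC8 to 0.70 for DNAJC14. DNAJC14, a membrane J protein of the ER that aids the export of receptors, measured 509, 486 and 513 against 313, 239 and 364. DNAJC28 measured 69.3, 71.1 and 89.5 against 57.1, 39.3 and 41.9 (0.66). DNAJC27 (0.52), DNAJC1 (0.52), an ER J protein, DNAJC17 (0.45), and DNAJC21 (0.43), which takes part in the making of the large ribosomal subunit, completed the group. For DNAJC21, 4 of 7 probe sets were higher, 1 was lower and 2 did not pass, and DNAJC21 and DNAJC8 read -0.11 and -0.04 without the probe sets marked as matching several transcripts.

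Of the 3 DNAJC genes that fell, DNAJC2 (MPP11, zuotin), which sits on the ribosome and meets the chain as it is made, measured 704, 825 and 759 against 1739, 1750.5 and 1504. The groups were far apart, and the log2 change was -1.05 (SE 0.10, limma adjusted p = 0.000108). DNAJC11, a J protein of the mitochondrial contact sites that hold the cristae, measured 425, 386 and 399 against 815, 826 and 732 (-0.93, SE 0.08, limma adjusted p = 7.77e-05). Each was called by 1 of 2 probe sets, and without the probe sets marked as matching several transcripts DNAJC2 read -0.36 and DNAJC11 -0.26, neither past the test. DNAJB6, DNAJC2 and DNAJC11 were the 3 members still called lower with hybridization controls (-0.75, -0.59 and -0.43). DNAJC7, which binds both HSP70 and HSP90, fell by 0.38 (limma adjusted p = 0.00921), all 3 of its probe sets were lower (the others read -2.50 and -1.97), and it read 0.06 with hybridization controls. DNAJC10 and DNAJC3, the brightest that did not pass, had changes of -0.16 and 0.35. DNAJC3 (p58IPK, the ER J protein that also inhibits the kinases PERK and PKR) was highest on progenitor array 1, 1351, 951 and 999 against 850.4, 879.6 and 942. The other 13 genes of the class had changes from -0.57 to 0.18 and missed the threshold, DNAJC5B and DNAJC5G with signal under the median of every array. With the mean of probe sets DNAJC24 (-0.80), DNAJC30 (-0.45) and DNAJC19 were called lower, and DNAJC3 was called higher. DNAJC22 was the farthest of them from 0 (-0.57, limma adjusted p = 0.0536), and its groups overlapped after normalization.

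HSPD1 (HSP60), the barrel of the mitochondrion, measured 7675, 7810 and 7685 in progenitors and 9122, 8983 and 8907 in hESC. Every hESC array was above every progenitor array and 4 of its 5 probe sets were lower, but the difference was 1.19-fold (log2 -0.26, SE 0.07, limma adjusted p = 0.024), its call was lost in 3 of the 6 fits without 1 array, and it read 0.31 with hybridization controls. HSPE1 (HSP10), the lid of the same machine, whose gene lies 105 bases from HSPD1 on chromosome 2, measured 4091, 4252 and 4322 against 4840, 4609 and 4828 (-0.14, not past the test). Both were lower on every progenitor array.

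Of the 8 measured genes of the cytosolic chaperonin CCT, 1 was higher, none was lower and 7 did not pass in limma, and at an unadjusted p under 0.05 the counts were also 1 and 0. With median centring 0 were higher and 3 lower, and with hybridization controls all 8 were higher. The subunits CCT2, CCT3, CCT4, CCT5, CCT7 and CCT8 and CCT6A had changes from -0.12 to 0.13. CCT2 measured 4634 to 4873 in progenitors and 5070 to 5373 in hESC, and CCT4 measured 4649 to 4991 against 4362 to 4743. CCT6B, a testis form related to CCT6A, was the 1 that rose, at 40.6, 38.6 and 36.3 against 30.4, 24.8 and 28.6 (0.42, SE 0.09, limma adjusted p = 0.00756). The second probe sets of several subunits read otherwise. That of CCT2 was lower by -0.75 and that of CCT6A by -0.32, while that of CCT4 was higher by 0.33, each past the test over probe sets. With the mean of its probe sets CCT2 was called lower (-0.44, limma adjusted p = 0.0111), and CCT8, with 1 of 2 probe sets lower, read -0.35. The lower probe set of CCT8 lay under the median on all 6 arrays, at 8.06 to 12.2 in progenitors and 29.6 to 33.5 in hESC.

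The remaining members did not pass, apart from 1 noncoding RNA. HSPBP1, an exchange factor of HSP70, had a change of -0.06, and HSPBAP1, which binds HSPB1, -0.26 (limma adjusted p = 0.0708). DNAJC3-DT, a noncoding RNA that starts 214 bases from DNAJC3 on chromosome 13, rose from low signal, 28.2, 39.2 and 42.2 against 26.8, 18.8 and 24.0 (0.52, SE 0.14, limma adjusted p = 0.0173), while DNAJC3 itself read 0.35 and did not pass. The call of DNAJC3-DT was lost with median centring, with the mean of its probe sets (0.21, limma adjusted p = 0.196) and in 3 of the 6 fits without 1 array. HSPA2-AS1, DNAJB8-AS1, DNAJC9-AS1 and DNAJC27-AS1 lay under the array median on all 6 arrays with changes from -0.00 to 0.20. Whether the arrays separate the strands where HSPA2-AS1 overlaps HSPA2 and DNAJB8-AS1 overlaps DNAJB8 was not tested.

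When all 205 probe sets were tested singly among 54613, 48 were higher, 36 were lower and 121 did not pass. The called share was 41.0%, where 40.2% of all probe sets were called, with backgrounds of 20.3% higher and 20% lower. 65 of the 89 genes had more than 1 probe set, and in 9 of these all probe sets were called in 1 direction. DNAJC21 and HSPA5 were the 2 genes with probe sets called in opposite directions. A gene's own value in the text is that of its brightest probe set.

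**Figure D4:**
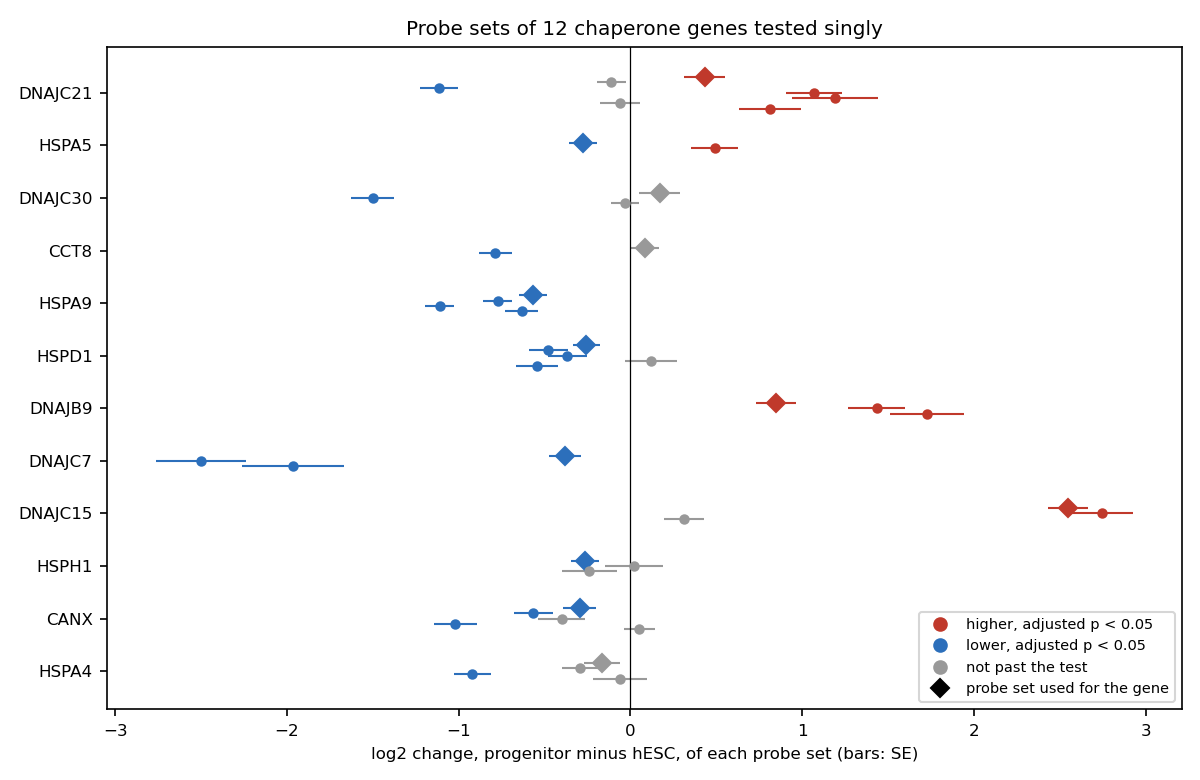
Log2 change (progenitor minus hESC) with its SE for each probe set of 12 members, a line of the plot per gene, coloured by call in the fit of single probe sets, with a diamond for the probe set that gives the gene's value. HSPA9 and DNAJB9 have all points on 1 side, while HSPA5 and DNAJC21 have called points on both sides of 0.

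The partners of these chaperones were read from lists of genes that are not members. Of 110 listed, 102 were measured, and 32 were higher, 18 lower and 52 not past the test, a called share near the 47.9% of all genes. By direction, 31.4% were higher and 17.6% lower, beside 26.7% and 21.2% of all genes. Of all genes above the array median on all 6 arrays, 61.2% were called. Of 15 HSP90 partners, 2 were higher, 4 lower and 9 not past. Median centring gave 1 higher and 7 lower, and hybridization controls 10 higher and none lower. TOMM34 (1.13), which ferries mitochondrial precursors, and UNC45B (0.38), which folds myosin, rose. UNC45B lay under the median of all 6 arrays and lost its call in 1 of the 6 fits without 1 array. CDC37 (-0.60), the adaptor for kinases, and CHORDC1 (-0.49) fell, and PTGES3 (-0.09), the p23 co-chaperone, did not pass. CHORDC1 read 0.09 without the probe sets marked as matching several transcripts.

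Of 13 exchange and ubiquitin partners of HSP70, 5 were higher, 2 lower and 6 not past. Median centring gave 2 higher and 4 lower, and hybridization controls 9 higher and none lower. SIL1 (1.29), the exchange factor of HSPA5 in the ER, and UBQLN1 (0.74), which takes ubiquitinated proteins to the proteasome, rose. GRPEL2 (-0.45) and GRPEL1 (-0.32), the exchange factors of HSPA9 in mitochondria, both fell with quantile normalization and read 0.02 and 0.18 with hybridization controls. GRPEL1 lost its call in 2 of the 6 fits without 1 array. BAG6 (0.16) did not pass.

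Prefoldin and the tubulin cofactors deliver actin and tubulin to CCT or take them from it. The list of chaperonin cofactors also holds genes with other tasks, among them BBS12, PDCL, MKKS (0.50) and BBS10 (0.41), all called higher. Of the 15 genes measured, 9 were higher, none was lower and 6 did not pass in limma. At an unadjusted p under 0.05 the counts were 10 higher and 0 lower. The limma shares were 60% higher and 0% lower, beside 26.7% and 21.2% of all genes. Among all genes above the array median on all 6 arrays the shares were 33.2% and 28%. Median centring gave 4 higher and 0 lower, and hybridization controls 15 and 0. BBS12 (1.43), a chaperonin-like subunit of the complex that builds the BBSome, and PDCL (0.98), which works with CCT on G protein subunits, rose most, and TBCA (0.13) did not pass.

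The ER and mitochondrial lists were mixed. Of 31 genes of ER folding and the unfolded protein response, 10 were higher, 7 lower and 14 not past. Median centring gave 6 higher and 10 lower, and hybridization controls 21 and 0. ATF6 (1.30), the factor that acts on the ER stress element, and CRELD1 (1.05) rose. SEC63 (-0.63), the J protein of the translocation channel, and UGGT1 (-0.57), the sensor of glycoprotein folding, fell, and PDIA3 (-0.18) did not pass. Of 13 genes of mitochondrial folding and proteolysis, 2 were higher, 4 lower and 7 not past. Median centring gave 2 higher and 7 lower, and hybridization controls 5 and 1. HTRA2 (1.15) and CLPP (0.64), both proteases, rose, while TIMM44 (-1.21), which anchors HSPA9 at the import pore, and HSCB (-0.64), the J protein of iron-sulfur cluster assembly, fell, and PHB2 (-0.20) did not pass. HSCB lost its call in 3 of the 6 fits without 1 array.

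Among 15 partners of heat shock factors and other small chaperones, 4 were higher, 1 lower and 10 not past. Median centring gave 3 higher and 6 lower, and hybridization controls 8 and 1. HSBP1 (0.91), a negative regulator of HSF1, and TOR2A (0.65) rose. CLU (-2.85), clusterin, a chaperone of the secretory route, fell, and UFD1 (-0.08) did not pass.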

How the data were processed

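The authors deposited 1 intensity per probe set and array, linear by its range. How they summarised probes, corrected background or scaled arrays was not given in the sources used here. Per the labels' protocols, biotinylated cRNA was made in an amplification step, and 2.15% of the values equalled 1, near the lowest (0.63). Intensities were converted to log2(intensity + 16). The array medians spanned 0.150 on that scale, over the limit of 0.1, so the arrays were quantile-normalized. The 62 array controls were left out, and a gene was read by its brightest probe set annotated to it alone. The test was lmFit with eBayes in limma 3.58.1 (R 4.3.3), two-sided, 3 arrays against 3, which limits the precision. It used Benjamini-Hochberg adjustment and a call at 0.05. It was also run on simulated data with few altered genes and no shift between arrays. That run cannot speak to how the calls depend on scaling.

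Genes were named by group: all members of the smaller groups, the 4 largest changes past the test in each direction and the 2 brightest not past it in the HSPA, HSPB and DNAJ groups, and 2, 2 and 1 in each partner list. Further members were named after their values were seen, to complete their groups. Members and lists were chosen with earlier results of these data known. Same-numbered arrays of the groups did not deviate together (correlations -0.022, 0.027 and -0.038), so the fit had no block. Figures were drawn with Python 3.11.15 and matplotlib 3.10.9.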

Additional observations from a re-analysis of the deposited data

How the results depend on the processing

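Scaling on hybridization controls gave 58 member genes higher and 3 lower, 107 and 15 probe sets, 68 and 2 partner genes and a median change of 0.42. Median centring gave 29 genes and 58 probe sets lower, 18 partner genes higher and 34 lower and a median of -0.15. An adjusted p under 0.01 left 6 genes lower, 31 and 22 probe sets and 20 partner genes higher. Averaging progenitor arrays 2 and 3 gave 8 genes lower, and the replicate block, on numbers that do not pair the samples, gave 23 higher and 8 lower. The median change was 0.066 with a pseudocount of 1, 0.063 and -0.035 without the dimmest 30% and 50%, and 0.080 with the mean of probe sets. Without 1 array in turn, 7 to 15 genes were lower and the median was 0.0043 to 0.067. With hybridization controls these genes changed sign: BAG1 0.20, BAG2 0.33, CANX 0.20, CCT2 0.39, CCT3 0.39, CCT6A 0.39, DNAJA2 0.35, DNAJB11 0.42, DNAJC16 0.50, DNAJC19 0.38, DNAJC24 0.43, DNAJC5 0.46, DNAJC7 0.062, DNAJC9 0.36, HSF1 0.23, HSP90AA1 0.48, HSP90AB1 0.50, HSP90B1 0.41, HSPA14 0.41, HSPA2 0.059, HSPA5 0.24, HSPBP1 0.46, HSPD1 0.31, HSPE1 0.35, HSPH1 0.19, GRPEL1 0.18, GRPEL2 0.022, PTGES3 0.43 and UFD1 0.36. With the mean of probe sets CCT8 read -0.35, DNAJC30 -0.45, HSF1 0.12 and HSPA5 0.11. Without the probe sets marked as matching several transcripts CCT8 read -0.79, DNAJA1 -0.021, DNAJC21 -0.11, DNAJC8 -0.041 and CHORDC1 0.093. That CCT8 value came from a probe set under the median of every array. The cause of these moves was not tested. Of the 39 calls, 6 held in all 20 alternatives and 9 more in the 19 that gave them a value. Low signal limits the 12 members under the array median.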

Other observations

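Some members were also listed by the compartment where their proteins work, a grouping made after the values were seen. The lists were picked by hand and may leave out members, so the counts depend on that choice. The 8 members listed for the mitochondrion held 1 gene higher, DNAJC15, 4 lower, HSPA9, HSPD1, DNAJA3 and DNAJC11, and 3 not past the test. Their median log2 change was -0.20. The split moved to 1 higher and 6 lower with median centring and to 4 higher and 1 lower with hybridization controls, with a median of 0.33. The 12 members listed for the ER held 4 higher, 2 lower and 6 not past, with a median of 0.15. Median centring gave 3 higher and 3 lower, with a median of -0.03, and hybridization controls gave 9 higher and none lower. This list left out DNAJC14, also a membrane protein of the ER, which was higher (0.70). Beside these counts, 26.7% of all genes were higher and 21.2% lower with quantile normalization.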
